A study of Mus musculus with 4 samples.

Results

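The 10 genes described here encode proteins by which muscle stem cells (MuSCs), also called satellite cells, are recognised and held in their niche. They are the laminin receptor subunits *Itga7* and *Itgb1*, the heparan sulphate proteoglycans *Sdc3* and *Sdc4*, the adhesion molecules *Cdh15*, *Ncam1* and *Vcam1*, the signalling receptors *Met* and *Calcr*, and the sialomucin *Cd34*. They were chosen by gene name alone, and each name matched 1 entry of the 55267 in the joined expression table. All 10 passed the filter of a mean of at least 1 TPM (a transcript level corrected for length and scaled to a sum of 1000000 in each library) over the 4 libraries, as did 13128 entries in all.

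RNA-seq was performed on cultured MuSCs from forelimb, hindlimb, dorsal and breast muscle of female mice aged 9 weeks of genotype C57BL/6N(Tg(Pax7-EGFP)Tajb), in which a green fluorescent reporter follows *Pax7*. Mononucleated cells were kept for 1 day in 15% FBS with 2.5 ng/mL basic FGF and 10 ng/mL leukemia inhibitory factor on Matrigel at 3% oxygen, sorted for the reporter and cultured for 2 more days with B27 added. All cells, the controls included, then spent 6 h without serum and with 200 ng/mL of the soluble receptor BMPR-1A-Fc, which binds BMPs in the medium. The BMP6 group (2 libraries) then received 100 ng/mL BMP6 and the control group (2 libraries) received the vehicle, 4 mM HCl with 0.1% BSA, for 1 h. The labels give a biological replicate number as a batch, shared by 1 BMP6 and 1 control library, and do not say how many mice contributed to each. Cells that had been out of the muscle for days, and a sort on a *Pax7* reporter rather than on these surface proteins, limit the cultures as a model of the resting cell.

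Satellite cells lie between the muscle fibre and its laminin-rich basal lamina. Integrin α7β1 binds that laminin, and M-cadherin, the product of *Cdh15*, joins the cell to the fibre. Resting cells are known to carry CALCR, a calcitonin and collagen V receptor coupled to cyclic AMP that holds them in quiescence, and CD34. Hepatocyte growth factor released after injury signals through MET, with syndecans as co-receptors, and drives entry into the cell cycle, while NCAM1 and CDH15 persist or increase as myoblasts commit to fusion.

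Several of these genes are known to be spliced into proteins that differ in how they bind ligand or sit in the membrane. The coding stretches that tell these transcripts apart are printed here because the results by transcript turn on them. They were read from the reference genome GRCm39, the build of the deposited files, with coding bounds from GENCODE M39. In *Itga7*, exons of 132 bases (chr10:128777314-128777445, plus strand) and 120 bases (chr10:128777691-128777810, plus strand) are alternatives in the extracellular part, known as the X1 and X2 regions.
Itga7 exon of 132 bases: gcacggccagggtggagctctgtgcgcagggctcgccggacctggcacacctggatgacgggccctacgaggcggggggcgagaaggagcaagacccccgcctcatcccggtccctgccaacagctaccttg
Itga7 exon of 120 bases: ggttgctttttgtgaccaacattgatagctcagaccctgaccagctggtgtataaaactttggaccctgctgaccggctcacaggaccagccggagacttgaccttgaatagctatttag

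In *Ncam1*, the exon of 208 bases (chr9:49421005-49421212, minus strand) encodes the membrane-spanning segment, while an exon of 305 bases ends the transcript of the form anchored by glycolipid and has a coding part of 74 bases (chr9:49428809-49428882, minus strand). A further exon begins with or without an extra triplet, in capitals below, of which the first 30 bases of the longer version (chr9:49431486-49431515, minus strand) are given.
Ncam1 exon of 208 bases: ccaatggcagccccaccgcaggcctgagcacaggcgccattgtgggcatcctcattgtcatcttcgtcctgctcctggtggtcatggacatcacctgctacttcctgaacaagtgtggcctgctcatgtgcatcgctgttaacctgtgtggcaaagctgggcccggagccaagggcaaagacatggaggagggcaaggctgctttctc
Ncam1 coding part of the glycolipid-anchored end exon: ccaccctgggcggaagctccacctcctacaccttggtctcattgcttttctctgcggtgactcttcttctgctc
Ncam1 exon start with the extra triplet: AAGctcgcctctgagtggaaaccggaaatc

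In *Vcam1*, the coding sequence ends either in the last exon of the full-length form (158 coding bases, chr3:115904529-115904686, minus strand) or, in a shorter form, in an exon of 1514 bases of which 107 are coding (chr3:115917336-115917442, minus strand).
Vcam1 coding end of the longer transcript: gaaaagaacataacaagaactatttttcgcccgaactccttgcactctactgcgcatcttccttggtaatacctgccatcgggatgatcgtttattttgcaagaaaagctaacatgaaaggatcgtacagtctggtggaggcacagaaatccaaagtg
Vcam1 coding end of the shorter transcript: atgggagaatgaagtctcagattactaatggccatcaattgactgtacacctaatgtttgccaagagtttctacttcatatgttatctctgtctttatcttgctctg

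In *Cd34*, the protein with the longer cytoplasmic tail ends in a coding stretch of 183 bases (chr1:194642244-194642426, plus strand), and the protein with the shorter tail comes from a transcript whose last exon starts further upstream and ends at the same base, with its own first coding bases and stop codon, in capitals, given (chr1:194642088-194642102, plus strand). In *Calcr*, an exon of 111 bases (chr6:3707489-3707599, minus strand) adds an insert to the receptor.
Cd34 tail of the longer protein: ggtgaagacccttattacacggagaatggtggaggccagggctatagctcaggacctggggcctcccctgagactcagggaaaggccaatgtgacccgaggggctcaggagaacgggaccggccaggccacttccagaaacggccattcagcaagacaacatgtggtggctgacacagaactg
Cd34 end of the shorter protein: gagctggaacctTGA
Calcr exon of 111 bases: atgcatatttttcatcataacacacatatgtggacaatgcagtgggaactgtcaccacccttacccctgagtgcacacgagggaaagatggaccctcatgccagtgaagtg

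Each library held between 108.2 and 112.0 times 1000000 rebuilt reads, and the number of entries at 1 TPM or more lay between 13002 and 13203. The reads are not counts of independent molecules, since the cDNA was amplified without molecular identifiers. Both ends of a fragment were sequenced and each read was counted, so fragments were fewer than reads. Myogenic markers served as a check of the cell type. Of these, *Pax7* was at 9.92 and 11.7 TPM after BMP6 and at 8.29 and 10.7 TPM in controls. *Myf5*, *Myod1* and *Des* had means of 141, 601 and 959 TPM over the 4 libraries. *Myog*, the transcription factor of differentiating myoblasts, was not among the markers set for that check and had a mean of 4831 TPM. Among markers of other cells, endothelial genes summed to 1.25 to 2.16 TPM per library and immune genes to 1.35 to 1.91 TPM. In the endothelial list the defining gene *Kdr* was listed at 0. *Tek*, named after its values were seen, was at 1.24 to 1.87 TPM and held most of that list's sum. Pericyte and smooth muscle genes summed to 12.0 to 13.9 TPM. Most of that came from *Notch3*, *Pdgfrb* and *Cspg4*, with means of 4.93, 4.65 and 3.14 TPM. *Rgs5* and *Myh11* of the same list had means of 0.539 and 0.0152 TPM. *Notch3* also stands in the list of other quiescence genes used below, so the sum is not a measure of pericyte RNA alone. Fibro-adipogenic genes summed to 188 and 124 TPM after BMP6 and to 198 and 147 TPM in controls (replicates 1 and 2), mostly from the collagens *Col1a1* and *Col3a1*, while *Pdgfra*, which defines those cells, was at 0.053 to 0.164 TPM. In the same list *Ly6a* was at 18.7 to 24.1 TPM and *Dcn* at 0.955 to 1.92 TPM, both named after their values were seen. In bulk RNA such as this, fewer cells of a type and less RNA per cell cannot be told apart.

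The first question is how strongly each marker was expressed in the cultured cells before BMP6. Levels in controls spanned from *Ncam1*, above 98.4% of the tested entries, to *Cd34*, above 1.36% of them. The adhesion molecules and integrins were the most abundant, the syndecans and *Met* were intermediate, and the genes most associated with quiescence, *Calcr* and *Cd34*, were at the bottom of the order. *Ncam1* (chr9:49413436-49710225), a homophilic adhesion molecule of myoblasts, was at 710 and 642 TPM in control replicates 1 and 2 and held rank 216. *Itgb1* (chr8:129412135-129459681), the β subunit shared by many matrix receptors, was at 290 and 304 TPM. *Cdh15* (chr8:123574705-123594136) was at 308 and 251 TPM. *Itga7* (chr10:128769645-128794155) was at 251 and 203 TPM, so that the α7 subunit lay below its β1 partner in both controls.

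*Vcam1* (chr3:115903598-115923337), a receptor for integrin α4β1, was at 41.0 and 35.1 TPM, above 71.3% of the tested entries. Close to the middle of the tested entries stood a trio of genes. *Sdc3* (chr4:130519848-130553630) was at 15.1 and 9.76 TPM, *Met* (chr6:17463799-17573979) at 11.0 and 12.6 TPM, and *Sdc4* (chr2:164266167-164285106) at 12.6 and 9.95 TPM. *Calcr* (chr6:3685680-3764714) was at 2.10 and 1.22 TPM, above 9.12% of the tested entries. *Cd34* (chr1:194621127-194643587) was at 1.25 and 0.789 TPM. The values of *Cd34* rested on 203 and 123 rebuilt reads and those of *Calcr* on 447 and 256, against 188729 and 165616 for *Ncam1*. Both reads of a fragment count in these numbers.

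The order fell into 5 steps. Neighbours whose control ranges did not overlap were *Ncam1* over *Itgb1* (2.28 times, ratio of the control means), *Itga7* over *Vcam1* (5.96 times), *Vcam1* over *Sdc3* (3.06 times) and *Sdc4* over *Calcr* (6.79 times). Within *Itgb1*, *Cdh15* and *Itga7*, within *Sdc3*, *Met* and *Sdc4*, and between *Calcr* and *Cd34*, neighbours overlapped over the 4 libraries, although *Cdh15* was above *Itga7* and *Calcr* above *Cd34* in each control. The order of the 10 genes was the same on FPKM.

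**Figure D1:**
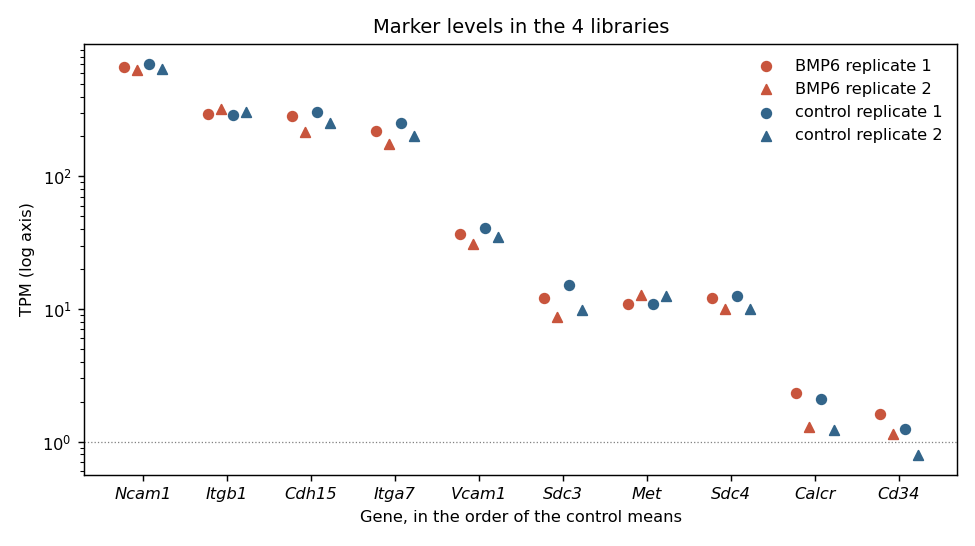
TPM of each marker in the 4 libraries on a log axis, ordered by the mean of the controls, with BMP6 in red, controls in blue, circles for replicate 1 and triangles for replicate 2. The dotted line marks 1 TPM, and the points fall from 642 to 710 TPM for *Ncam1* in controls to 0.789 to 1.25 TPM for *Cd34*.

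Some entries can hold reads of other genes, because the libraries were unstranded and reads aligned to several places were kept. *Cd34* is overlapped along its whole length on the other strand by the non-coding gene *Gm16897*, whose own entry was at 0.168 to 0.301 TPM, so the low level of *Cd34* is uncertain. *Ncam1* overlaps *Gm11149* on the other strand (3.74 to 5.70 TPM), and stretches of 50 bases of its transcripts recur in transcripts of 257 other genes. *Itga7* shared such stretches with *Gm67756* and *Gm67752*, and *Sdc3* with *Gm26716*, non-coding genes that overlap them on the other strand. The entry of *Gm26716* was at 0 TPM in each library. No such stretch was found for *Calcr*, *Sdc4*, *Itgb1*, *Vcam1*, *Cdh15* or *Met* at the positions searched.

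The main comparison asks whether 1 h of BMP6 changed the markers. None of the 10 was called, which required an adjusted p under 0.1 and a change of 2-fold or more either way (limma on log2(TPM + 1), adjusted over all tested entries), where 0.225% of the 10645 named entries were called higher and 0% lower. None passed the adjusted p at any fold, against 0.244% of all tested entries. None had an unadjusted p under 0.05 by limma, where 420 of the 13128 tested entries did, or by voom on rebuilt reads. Neither of these fits used the pairing of libraries by replicate number. With that pairing 3 of the 10 were under 0.05 by limma and 4 by voom, with no share of all tested entries beside them. The log2 fold changes ranged from -0.23 (*Sdc3*) to 0.24 (*Cd34*) with a median of -0.03, beside 0.02 for all tested entries. On this scale the 95% intervals of all 10 genes lay within -0.82 and 0.71, inside a 2-fold change either way. With a pseudocount of 0.1, which compresses low values less, the upper bounds of *Cd34* (1.23) and *Calcr* (1.05) passed 2-fold, so for these 2 low genes the interval on that scale included a doubling.

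Of the laminin receptor, *Itga7* was at 222 and 175 TPM after BMP6 (replicates 1 and 2) against 251 and 203 TPM in controls. It was lower after BMP6 within each replicate, but BMP6 replicate 1 was above control replicate 2, so the groups overlapped. Its log2 fold change was -0.19 (SE 0.15, 95% interval -0.57 to 0.18, limma adjusted p = 1.00). *Itgb1* was at 297 and 325 TPM after BMP6 against 290 and 304 TPM. It was higher in each replicate by 0.04 and 0.09 on the log2 scale, a difference smaller than that between the BMP6 libraries, and its log2 fold change was 0.06 (SE 0.08, 95% interval -0.14 to 0.27, limma adjusted p = 1.00).

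Of the syndecans, *Sdc3* was at 12.0 and 8.64 TPM after BMP6 against 15.1 and 9.76 TPM in controls. Both replicates were lower after BMP6, and replicate 2 was lower than replicate 1 in either group by more than that. Its log2 fold change of -0.23 had the widest interval but one of the 10 (SE 0.24, 95% interval -0.82 to 0.36, limma adjusted p = 1.00). *Sdc4* was at 12.0 and 10.0 TPM against 12.6 and 9.95 TPM. The replicates had opposite signs, with a log2 fold change of -0.02 (95% interval -0.42 to 0.38).

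Of the adhesion molecules, *Cdh15* was at 287 and 218 TPM after BMP6 against 308 and 251 TPM in controls. It was lower in each replicate by 0.10 and 0.21 on the log2 scale, with overlapping groups and a log2 fold change of -0.15 (SE 0.16, 95% interval -0.55 to 0.24, limma adjusted p = 1.00). *Vcam1* was at 37.1 and 31.1 TPM against 41.0 and 35.1 TPM. BMP6 replicate 1 exceeded control replicate 2 here too, and the log2 fold change was -0.16 (SE 0.13, 95% interval -0.48 to 0.17). *Ncam1*, at 673 and 637 TPM against 710 and 642 TPM, had a log2 fold change of -0.04 and a narrow interval (-0.25 to 0.16).

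Of the signalling receptors, *Met* was at 10.9 and 12.7 TPM after BMP6 against 11.0 and 12.6 TPM in controls. Same-numbered libraries almost coincided, and the log2 fold change was 0.00 (SE 0.14, 95% interval -0.34 to 0.35). *Calcr* was at 2.31 and 1.28 TPM against 2.10 and 1.22 TPM. Its BMP6 libraries were each slightly above the control of the same number, with a log2 fold change of 0.07 (SE 0.25, 95% interval -0.55 to 0.69). *Cd34*, an anti-adhesive sialomucin, was at 1.61 and 1.15 TPM against 1.25 and 0.789 TPM. It had the highest log2 fold change of the 10 at 0.24 (SE 0.19, 95% interval -0.23 to 0.71, limma adjusted p = 1.00), and the groups overlapped because BMP6 replicate 2 was below control replicate 1.

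In none of the 10 genes did the BMP6 libraries lie wholly below the controls, as in 11.6% of the tested entries, or wholly above them, as in 16.6%. Within both replicates 5 genes were lower after BMP6 (*Itga7*, *Sdc3*, *Cdh15*, *Vcam1* and *Ncam1*), against 25.7% of the tested entries, and 3 were higher (*Itgb1*, *Calcr* and *Cd34*), against 35.0%. With the replicate number as a block, a paired fit, none passed the adjusted p, against 1.64% of the tested entries. That fit gave 3 of the 10 an unadjusted p under 0.05, and voom with the same block gave 4. The 3 were *Itga7* (adjusted p = 0.200), *Cdh15* (adjusted p = 0.307) and *Sdc3* (adjusted p = 0.362, limma). Their paired 95% intervals lay below 0, at -0.32 to -0.07, -0.28 to -0.03 and -0.45 to -0.01 in that order. The other intervals given for BMP6 are from the fit without the block, where the replicate difference adds to the spread. The share of all tested entries at an unadjusted p under 0.05 is not given for the paired fits, so these counts lack a background. The direction turned when a single library was left out for *Calcr* (-0.20 without BMP6 replicate 1 and -0.17 without control replicate 2), *Sdc3* (0.06 without control replicate 1), *Sdc4* (0.10 without BMP6 replicate 2 and 0.13 without control replicate 1), *Cdh15* (0.05 without BMP6 replicate 2), *Ncam1* (0.03 without control replicate 1) and *Met* (-0.10 without BMP6 replicate 2 and -0.09 without control replicate 1).

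These genes differed more between replicate numbers than between treatments. In all 10 the difference between replicates 2 and 1 was larger in size than that between BMP6 and control, with medians of 0.29 and 0.11 on the log2 scale, beside 0.14 and 0.09 for all tested entries. The median was thus larger between replicates over all tested entries too. The share of tested entries with this order is not given, so the count of 10 lacks a background. Of the 10 genes, 6 passed the adjusted p as lower in replicate 2, against 8.37% of the tested entries, and none as higher, against 11.4% (limma with treatment as a covariate). These were *Calcr* (-0.51, adjusted p = 0.0401), *Sdc3* (-0.51, adjusted p = 0.0145), *Cdh15* (-0.35, adjusted p = 0.00772), *Itga7* (-0.32, adjusted p = 0.00945), *Sdc4* (-0.27, adjusted p = 0.0940) and *Vcam1* (-0.23, adjusted p = 0.0814). For *Calcr* this was a fall from 2.31 to 1.28 TPM after BMP6 and from 2.10 to 1.22 TPM in controls. *Cd34* and *Ncam1* were also lower in replicate 2, by -0.31 and -0.11, and *Itgb1* and *Met* were higher, by 0.10 and 0.20, without passing the adjusted p. Lower values in replicate 2 were found for 8 of the 10 genes and for 44.0% of the tested entries.

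Some markers of other cells and of differentiation also differed between replicates. *Col3a1* and *Col1a1* differed by -0.53 and -0.62 (limma adjusted p = 0.00285 and 0.00336), and 2 of the 4 tested fibro-adipogenic genes passed the adjusted p. Of all 13128 tested entries 2595 passed it in either direction. Of the 12 genes of activation, proliferation and differentiation 5 passed, with mixed signs: *Myog* (0.24, limma adjusted p = 0.00555) and *Mymx* (0.43, limma adjusted p = 0.00378) were higher in replicate 2, and *Myf5* (-0.52, limma adjusted p = 0.00188), *Des* (-0.23, limma adjusted p = 0.0110) and *Myh8* (-0.22, limma adjusted p = 0.0949) were lower. *Mymx*, *Myf5* and *Myh8* were named after their values were seen. *Ramp2* was 0.89 lower (limma adjusted p = 0.000928) and *Spry1* 0.66 higher (limma adjusted p = 0.00145). Their part in the difference between replicates was not tested.

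**Figure D2:**
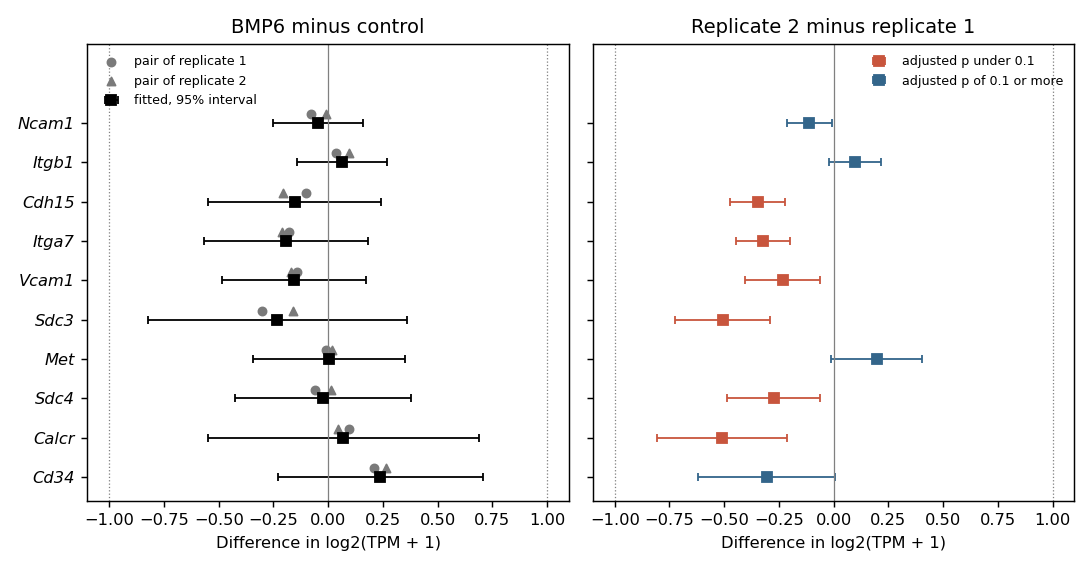
Differences in log2(TPM + 1) for the 10 markers, BMP6 minus control on the left, with the fitted value (square), its 95% interval and the value in each replicate pair (grey), and replicate 2 minus replicate 1 on the right, in red where the adjusted p was under 0.1. Dotted lines mark a 2-fold change, and the right panel holds 6 red genes, each below 0. All intervals on the left, which are from the fit without the replicate block, span 0.

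Transcripts were examined next, to ask which forms of the proteins the cells made and whether BMP6 shifted them. The 10 genes have 23 transcripts in the deposited annotation, of which 16 passed the filter. None of the 16 passed the adjusted p (limma, adjusted p = 1.00 each), where 0.0672% of the 19346 tested transcripts did. None had an unadjusted p under 0.05, and 3 did with the replicate block, a count with no share of all tested transcripts beside it. *Itgb1*, *Cdh15*, *Sdc3* and *Sdc4* have 1 transcript each. Of the other 12 tested transcripts, 4 took a share of their gene's TPM that was higher in both BMP6 libraries than in both controls, as 16.7% of 13010 tested transcripts of genes with more than 1 expressed transcript did, and 3 took a lower one, as 16.2% did. The shares of 1 gene are tied to each other, since they sum to 100%. The 4 were 1 transcript each of *Ncam1*, *Vcam1*, *Met* and *Calcr*.

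Transcripts with the exon of 208 bases and the transcript ending in the exon of 305 bases both took large shares of *Ncam1*. The transmembrane form ENSMUST00000193547.6 (848 residues) took 48.0% and 44.5% of the gene's TPM after BMP6 and 43.4% and 42.9% in controls. The glycolipid-anchored form ENSMUST00000114476.8 (725 residues) took 40.2% and 39.3% after BMP6 and 43.7% and 36.8% in controls. ENSMUST00000166811.9, with the extra triplet (849 residues), took 11.3% and 15.8% after BMP6 and 12.3% and 19.6% in controls. The form with the triplet was thus the least abundant of the trio in each library, and higher in replicate 2 of either group. Exon coverage, the mean read depth over an exon as assigned to its transcripts, gave another balance. The exon of 305 bases took 74.8% and 75.1% of the summed coverage of both exons after BMP6 and 75.9% and 73.4% in controls, whereas the TPM of the transcripts holding each exon gave it 40.5%, 39.4%, 43.9% and 37.0%. The share of the glycolipid-anchored form therefore depended on the measure, while within each measure the groups overlapped.

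*Itga7* was mostly ENSMUST00000099112.4, with the exon of 120 bases (1136 residues), at 79.6% and 83.7% of the gene's TPM after BMP6 and 78.9% and 82.5% in controls. ENSMUST00000218290.2, with the exon of 132 bases (1140 residues), took 10.5% and 13.4% after BMP6 and 8.73% and 15.4% in controls. ENSMUST00000240553.1, annotated with both exons (1180 residues), was at 21.9 and 5.14 TPM after BMP6 and at 31.0 and 4.30 TPM in controls. It was higher in replicate 1 than in replicate 2 in both groups, and its log2 fold change of -0.13 had an SE of 1.15. Exon coverage was steadier than the split into transcripts: the exon of 132 bases took 16.7% and 15.9% of the summed coverage of both exons after BMP6 and 16.6% and 16.8% in controls.

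*Vcam1* was mostly the full-length ENSMUST00000029574.13 (739 residues), at 90.1% and 90.0% of the gene's TPM after BMP6 and 90.8% and 91.6% in controls. ENSMUST00000196449.5 (345 residues), which ends in the exon of 1514 bases and resembles the short, glycolipid-anchored form known in mouse, held the rest. By coverage that exon took 8.74% and 7.73% after BMP6 and 8.39% and 7.98% in controls, set against the next exon of 276 bases in the full-length form.

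**Figure D3:**
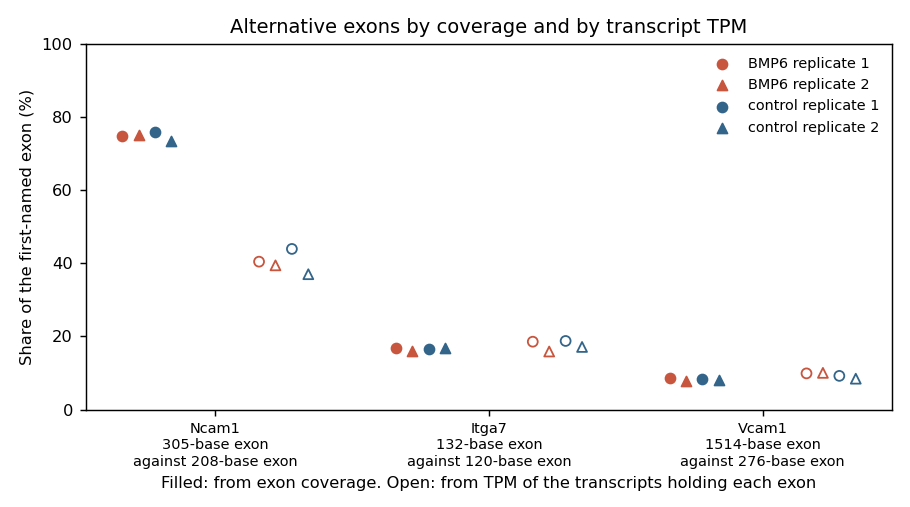
Share of the first-named exon in the summed value of a pair of alternative exons for *Ncam1*, *Itga7* and *Vcam1*, from exon coverage (filled) and from the TPM of transcripts holding each exon (open), in percent per library. For *Ncam1* the filled points lie at 73.4% to 75.9% and the open ones at 37.0% to 43.9%, while for *Itga7* and *Vcam1* both measures lie below 20%.

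Of *Met*, the main transcript ENSMUST00000115443.8 was at 8.58 and 7.80 TPM after BMP6 and at 9.60 and 10.3 TPM in controls. All bases of another transcript, ENSMUST00000080469.12, lie within exons of the main one, so its level rests on how shared reads were divided. ENSMUST00000080469.12, which starts inside the locus and encodes the same 1379 residues, was at 2.31 and 4.94 TPM after BMP6 and at 1.36 and 2.29 TPM in controls. Its share was 21.2% and 38.8% after BMP6 against 12.4% and 18.2% in controls, 1 of the 4 shares without overlap counted above. The log2 fold change was 0.67 (SE 0.38, 95% interval -0.40 to 1.74, limma adjusted p = 1.00), and 0.49 and 0.85 within replicates 1 and 2. The main transcript had a log2 fold change of -0.25 (SE 0.14, limma adjusted p = 1.00).

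For the genes at the bottom of the order, transcripts were called from few reads. All 3 *Calcr* transcripts other than ENSMUST00000171613.8 and ENSMUST00000168592.9 were listed at 0 in each library, both transcripts with the insert of 111 bases (533 residues) among them. ENSMUST00000171613.8, without the insert (496 residues), took 93.4% and 96.6% of the gene's TPM after BMP6 and 86.0% and 91.7% in controls, and ENSMUST00000168592.9, with the same coding sequence length, took 3.44% to 14.0%. *Cd34* was split between ENSMUST00000110815.9, the form with the shorter tail (325 residues), at 72.9%, 54.2%, 66.3% and 61.2% in BMP6 replicates 1 and 2 and control replicates 1 and 2, and ENSMUST00000016638.8, the form with the longer tail (382 residues), at 27.1%, 45.8%, 33.7% and 38.8%. The shorter tail took the larger share in each library.

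**Figure D4:**
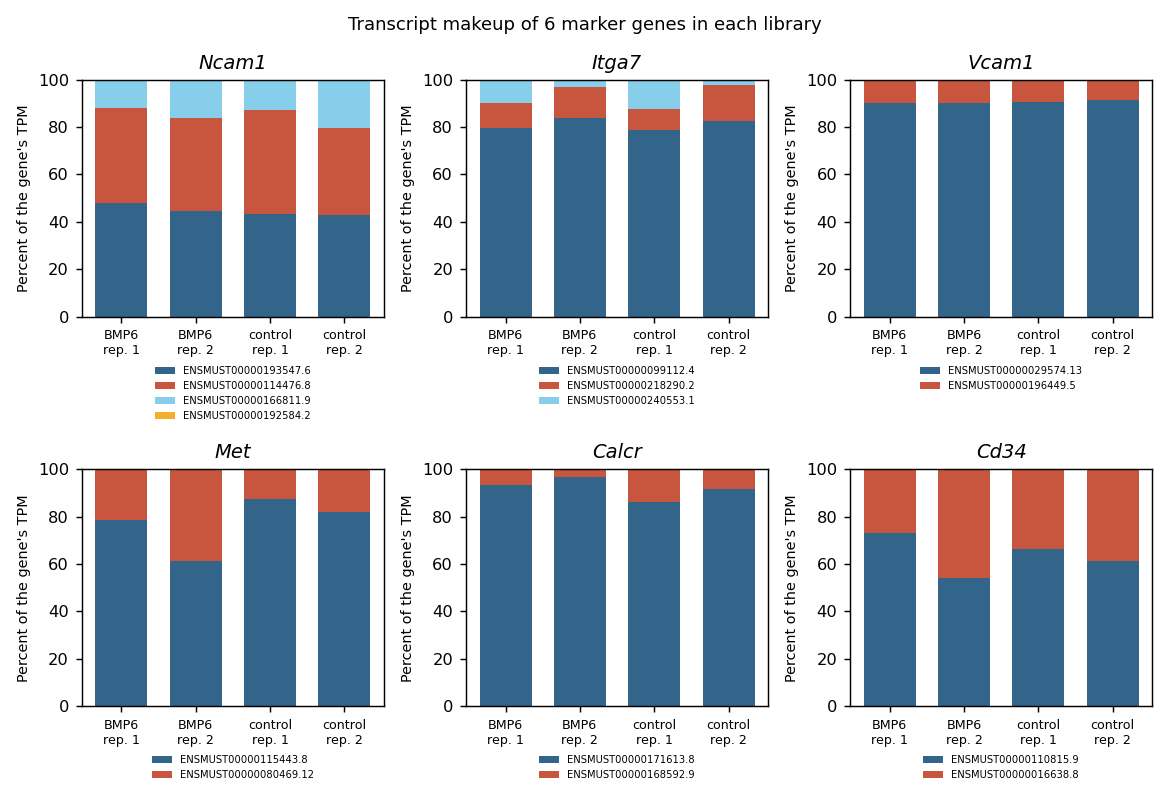
Percent of each gene's TPM taken by each transcript in the 4 libraries for the 6 markers with more than 1 expressed transcript. The light blue transcript of *Itga7* is visible mainly in replicate 1, and the red transcript of *Met* takes 21.2% and 38.8% after BMP6 against 12.4% and 18.2% in controls.

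The partners of the markers were read from the same fit, in lists by function. Of 6 tested syndecans and glypicans beside *Sdc3* and *Sdc4*, 5 had values above 0 and 1 below, and none passed the adjusted p. The median log2 fold change was 0.09. *Gpc1*, a glypican anchored by glycolipid, was at 91.6 and 72.7 TPM after BMP6 against 106 and 75.3 TPM in controls. *Sdc2* was at 78.5 and 63.5 TPM against 76.7 and 63.3 TPM, and *Sdc1* at 52.9 and 48.6 TPM against 50.6 and 41.3 TPM. *Sdc1* and *Sdc2* were each above *Sdc3* and *Sdc4* in every library.

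Of 18 other integrin subunits, 7 were tested, and none passed the adjusted p (median 0.01). *Itga7* was the most abundant α subunit listed, since *Itga5*, of the fibronectin receptor, was at 25.3 and 28.2 TPM after BMP6 against 25.7 and 24.2 TPM. *Itga6*, which also pairs with *Itgb1* to bind laminin, was at 8.38 and 12.7 TPM against 9.72 and 11.4 TPM, and the β subunit *Itgb5* at 17.7 and 19.6 TPM against 20.6 and 16.7 TPM. *Itga4*, which pairs with *Itgb1* to bind VCAM1, was at 0.061 to 0.176 TPM. It lies outside the naming rule and was chosen after its values were seen. Of 9 proteins that link integrins to actin, 8 were tested and none passed (median -0.01), with *Lims1* at 109 and *Fermt2* at 49.8 TPM on average.

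Of 10 other cadherins and catenins, 7 were tested and none passed (median 0.03). *Cdh2*, the N-cadherin that shares the fibre contact with *Cdh15*, was at 56.3 and 65.9 TPM after BMP6 against 56.3 and 63.3 TPM in controls. The catenins *Ctnnd1* and *Ctnnb1*, which bind the cadherin tail, had means of 240 and 183 TPM and log2 fold changes of 0.09 and 0.02. Of 10 other adhesion molecules and enzymes of polysialic acid, the sugar chain that NCAM1 carries, 3 were tested and none passed (median 0.10). The polysialyltransferase *St8sia2* was at 57.2 and 77.8 TPM after BMP6 against 50.3 and 66.7 TPM. Its log2 fold change was 0.20 (SE 0.19, limma adjusted p = 1.00), and *Cadm1* had a mean of 4.69 TPM.

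The ligand of *Met*, *Hgf*, was at 0.041 TPM or less in each library. Of the 10 genes of that pathway 5 were tested and none passed (median 0.00). The adaptor *Grb2* was at 46.5 and 91.0 TPM after BMP6 against 73.5 and 94.9 TPM, and the phosphatase *Ptpn11* had a log2 fold change of 0.02. Of 9 genes around *Calcr*, 6 were tested and none passed (median -0.05). The receptor-modifying proteins *Ramp1* and *Ramp2*, which turn calcitonin receptors into amylin receptors, were at 1.55 and 1.44 TPM after BMP6 against 2.20 and 1.87 TPM, and at 18.0 and 9.33 TPM against 19.6 and 10.0 TPM. The 2 libraries with BMP6 lay below both controls for *Ramp1*, as in 11.6% of the tested entries, other listed genes among them. Its log2 fold change was -0.28 (SE 0.15, 95% interval -0.65 to 0.09, limma adjusted p = 1.00). The stimulatory G protein gene *Gnas* and the catalytic subunit of protein kinase A, *Prkaca*, had means of 662 and 261 TPM.

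The list of other quiescence genes held the 1 listed gene past the adjusted p. *Hey1*, a transcriptional repressor downstream of Notch, was at 85.3 and 81.3 TPM after BMP6 against 36.7 and 28.1 TPM in controls. Its groups did not overlap, with a log2 fold change of 1.35 (SE 0.14, limma adjusted p = 0.0523). The call was lost without the filter on low values (adjusted p = 0.648) and with eBayes without a trend (limma adjusted p = 0.154), and the adjusted p was 0.000102 with the replicate block. It was 1 of 17 tested genes of that list past the adjusted p, against 0.244% of all tested entries. The list was chosen with earlier results of these data known, and the study reports *Hey1* as induced by BMP6. Counts from this list are therefore a description and no test of quiescence genes as a group. The list had 9 values above 0, 8 below and a median of 0.01. With the replicate block 3 of the 17 passed, against 1.64% of all tested entries. *Spry1*, an inhibitor of receptor tyrosine kinase signals, fell by 0.49 in that paired fit (adjusted p = 0.0136, limma with the block, and 1.00 without it), from 48.7 and 79.7 TPM in controls to 35.3 and 54.9 TPM. The chemokine receptor *Cxcr4*, named after its values were seen, was at 2.98 and 3.27 TPM against 1.32 and 1.01 TPM. Its log2 fold change was 0.94 (limma adjusted p = 0.0143 with the block and 0.270 without). *Pax7* had a log2 fold change of 0.17 (SE 0.17, limma adjusted p = 1.00), and the abundant *Cdkn1c* and *Cav1*, at means of 514 and 340 TPM, had 0.00 and 0.06.

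Of the 12 genes of activation, proliferation and differentiation, all were tested and none passed (median -0.08), with 8 values below 0. *Myog* was at 4400 and 5001 TPM after BMP6 against 4452 and 5472 TPM in controls, and *Mymk*, a fusion protein, had a mean of 1801 TPM and a log2 fold change of -0.09. With the replicate block *Des*, the muscle intermediate filament gene, passed (-0.24, limma adjusted p = 0.0312), named here after its value was seen. At an unadjusted p under 0.05, by limma without the block, there were 420 of all 13128 tested entries. Of these, 2 were in the quiescence list, 1 in this list and none in the other lists of partners or in the markers of other cells. Lists this short cannot be told apart by such counts.

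**Figure D5:**
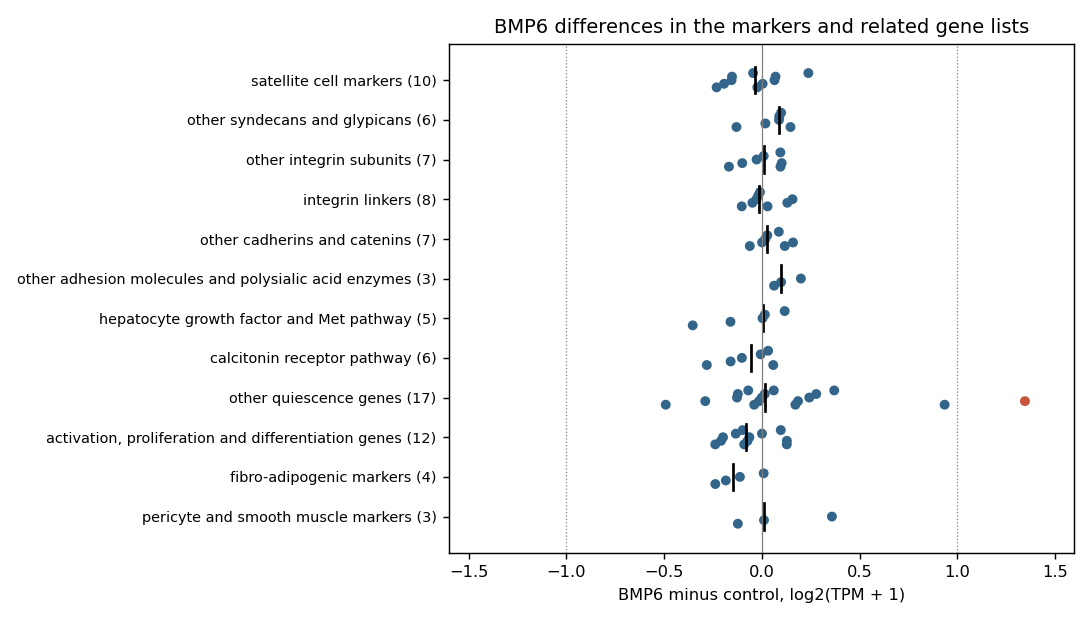
BMP6 minus control in log2(TPM + 1) for each tested gene of the markers and of related lists with at least 3 tested genes (number in brackets), with a black bar at each list's median and red for an adjusted p under 0.1. The red point at 1.35 is *Hey1*, and the 10 markers lie between -0.23 and 0.24.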

How the data were processed

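The markers and related lists were chosen with earlier results of these data known. RNA from 2 BMP6 and 2 control libraries, grouped by the labels, was sequenced in paired-end mode from unstranded Smart-seq2 libraries. Per the study's methods, reads were aligned with STAR (2.7.11a) to GRCm39 with GENCODE M32, sorted with SAMtools (1.17) and assembled, merged and quantified with StringTie (2.2.1). The authors deposited TPM per gene and per transcript, which sum to 1000000 in each library, and FPKM per gene. The transcript files that the authors deposited also give other values, among them coverage per exon.

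The test was limma 3.58.1 (R 4.3.3) with eBayes trend on log2(TPM + 1), two-sided, with p-values adjusted by Benjamini-Hochberg across all 13128 tested entries (mean TPM of 1 or more). The scale understates changes of low genes. This fit replaced the count model of the study, since the files list no counts. The study derived its counts from StringTie output. Read numbers of a similar kind were rebuilt here and tested by voom alone, and the study's model was not run on them. Names excluded by the study's own rule (non-coding and pseudogene patterns) stayed in the fit but out of the calls. The steps were tested on simulated data. Read numbers were rebuilt as coverage times length over a read length of 100 bases. Same-numbered libraries share a batch in the labels, so they are paired, and their deviations from the group means had a correlation of 0.563 across tested entries. With 2 libraries a group, an exact permutation cannot give a p under 0.333. Named genes were the 10 markers, genes of related lists past an adjusted p of 0.1, the 2 most abundant genes of each list and their direct partners, and, among transcripts, those with at least 10% of a gene's TPM in any library. Shared sequence was searched as 50-base words at every 25th position of GENCODE M39 transcripts. Alternatives changed 1 choice at a time (block, pseudocount, filter, scaling, unit, variance model, rebuilt reads, left-out libraries and threshold), except that voom on rebuilt reads was also run together with the block. A list of markers of another cell type is not reported here.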

Additional observations from a re-analysis of the deposited data

How the results depend on the processing

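Among the 10 markers, 0 were called and 0 passed the adjusted p in any of 15 alternatives (replicate block, pseudocounts, filters, quantile scaling, FPKM, no trend, voom with and without the block, each library left out, adjusted p under 0.05). The last of these only tightens the threshold on the same fit, so for the markers its result was fixed at 0. The lowest adjusted p was 0.128 (*Itga7*). *Cd34* and *Calcr* were not tested at a mean of at least 5 TPM. Over the left-out libraries the log2 fold change ranged from -0.20 to 0.34 for *Calcr*, -0.52 to 0.058 for *Sdc3*, -0.18 to 0.13 for *Sdc4*, -0.35 to 0.046 for *Cdh15*, -0.12 to 0.027 for *Ncam1* and -0.10 to 0.11 for *Met*, and *Cd34*, *Itga7*, *Itgb1* and *Vcam1* kept their direction. *Met* was also -0.024 with quantile scaling, -0.018 with FPKM, -0.028 with voom and -0.029 with voom and the replicate block. *Hey1* stayed between 1.16 and 1.53, called in 12 of 15. The cause was not tested.

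Across all genes, the 24 called higher became 15 with a pseudocount of 5 or a mean of at least 5 TPM, 0 without a filter, 12 without the trend, 55 by voom with the replicate block and 11 at an adjusted p under 0.05, with 17 to 30 over the left-out libraries. The 0 called lower (1 at an unadjusted p under 0.05) became 1 with the replicate block, 4 by voom with it and 1 to 7 over the left-out libraries. The 6 markers past the adjusted p between replicates stayed 6 in each of 3 alternatives. With 2 libraries a group, a change of a marker smaller than its interval was not detectable.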
